A study of Mus musculus with 6 samples.

Results

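The 40 genes described here encode the nuclear parts of respiratory complexes II and III, cytochrome c and ATP synthase. They were picked by symbol from a table of 23441 genes measured in mouse retina at embryonic day 14.5. The choice took every symbol of the Sdh subunit and assembly series, every symbol starting with Uqcr or Uqcc, and the Atp5 subunit symbols from a to o. It added the named partners Cyc1, Cycs, Bcs1l, Lyrm7, Ttc19, Mnf1, Atpif1, Atpaf1, Atpaf2 and Usmg5. The rule went by symbol alone, but it was made with earlier results of these data known. All 40 passed the filter on low counts.

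Polyadenylated RNA was sequenced from 3 CKO retina libraries and 3 control libraries. CKO mice were Ronin flox/flox with a transgene labelled Chx10-Cre::GFP +/tg. Thap11 encodes Ronin, a DNA-binding protein with a THAP-type zinc finger. Control mice were Ronin flox/flox without that transgene, so floxed alleles were common to both groups and the Cre transgene was not. The labels give a mixed background of C57/B6, SJL/B6, 129/Sv and FVB for all mice. The Chx10 promoter drives Cre in retinal progenitor cells, and cells of other lineages in the dissected tissue are not its target. Which cells had lost Thap11 was not measured here. The labels do not say whether libraries of a group came from separate animals or litters, and the p-values speak only of variation among the libraries, part of which may be technical.

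Complex II, succinate dehydrogenase, oxidises succinate and hands electrons to ubiquinone. Complex III passes them from ubiquinol to cytochrome c and pumps protons across the inner mitochondrial membrane. ATP synthase lets the protons flow back through a ring of c subunits and uses that rotation to make ATP in its catalytic F1 head. In the embryonic retina, dividing progenitors and early neurons both express these genes.

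Libraries held 23721052 to 28504391 counted reads in the CKO and 24903912 to 26280045 in the controls. The 40 genes took 0.444% to 0.470% of the reads in CKO libraries and 0.403% to 0.532% in control libraries. Thap11, the targeted gene, stood at 11.2, 10.9 and 6.38 CPM in CKO replicates 1 to 3, where CPM is counts per 1000000 reads of the scaled library, against 68.3, 82.0 and 71.6 CPM in control replicates 1 to 3. Retinal progenitor markers summed to 7971 to 8530 CPM in the CKO and 8459 to 8794 CPM in the controls. The sum of 19 lens markers was 10929, 66.2 and 799 CPM in CKO replicates 1 to 3 and 21.3, 12.8 and 13.9 CPM in the controls, so CKO replicate 1 held most of it, and no lens gene was at 0 in all libraries. Of 16 lens genes tested, edgeR called 0 (lowest adjusted p = 0.122, with 16 at an unadjusted p under 0.05), limma-voom 0, and DESeq2's Wald test 15 higher. The sums of 2 other lists did not overlap between the genotypes. Blood vessel markers summed to 254 to 276 CPM in the CKO and 292 to 350.2 CPM in the controls, and retinal neuron markers to 2245 to 2297 CPM in the CKO and 2052 to 2127 CPM in the controls. Of the 10 genes in each, edgeR and limma-voom called 0, with 2 vessel genes and 0 neuron genes at an unadjusted p under 0.05, and DESeq2's Wald test called 1 vessel gene lower. The other sums overlapped: pigment epithelium at 36.1 to 42.2 CPM in the CKO and 41.3 to 83.9 CPM in the controls, periocular mesenchyme at 53.4 to 75.2 CPM in the CKO and 73.9 to 186 CPM in the controls, microglia at 40.5 to 51.7 CPM in the CKO and 38.1 to 50.9 CPM in the controls, and erythroid genes, 3 of them at 0 in all libraries, at 4.07 to 13.1 CPM in the CKO and 6.47 to 16.1 CPM in the controls. All 7 pigment epithelium genes tested had negative log2 fold changes (median -0.57). At an unadjusted p under 0.05 in edgeR were 2 of these 7, 1 of 6 periocular, 1 of 3 erythroid and 0 of 10 microglia genes tested, against 6.58% of all genes. No tool called a gene of these 4 lists. The part of any of these cell types in the results below was not tested.

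Across the genotypes, 1 of the 40 genes passed the test and it fell. This was Uqcr10, which encodes a small subunit of complex III, and it was left at 19.2% of its control level. In edgeR's quasi-likelihood fit of 14609 genes, 0.705% were called lower and 0.192% higher at a Benjamini-Hochberg adjusted p under 0.05. The share of the 40 genes called lower was thus 1 gene against a background of under 1%, and none was called higher. The other 39 genes all lay within 1.44-fold, with log2 fold changes between -0.53 and 0.50 and edgeR adjusted p values of 0.854 to 0.994. Of all 40 genes, 1, Uqcr10 itself, had an unadjusted p under 0.05 in edgeR, against 6.58% of all genes tested. DESeq2's Wald test called Uqcr10 and no other gene of the 40, with 1.46% of all genes lower and 0.817% higher. Limma-voom gave the same member call, with 0.637% lower and 0.185% higher. The median log2 fold change was -0.09 over the 40 genes and -0.03 over all genes tested. Of the 40 genes 23 had a negative log2 fold change, against 55% of all genes tested, and without control replicate 1 that number was 15 and the median was 0.07.

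**Figure D1:**
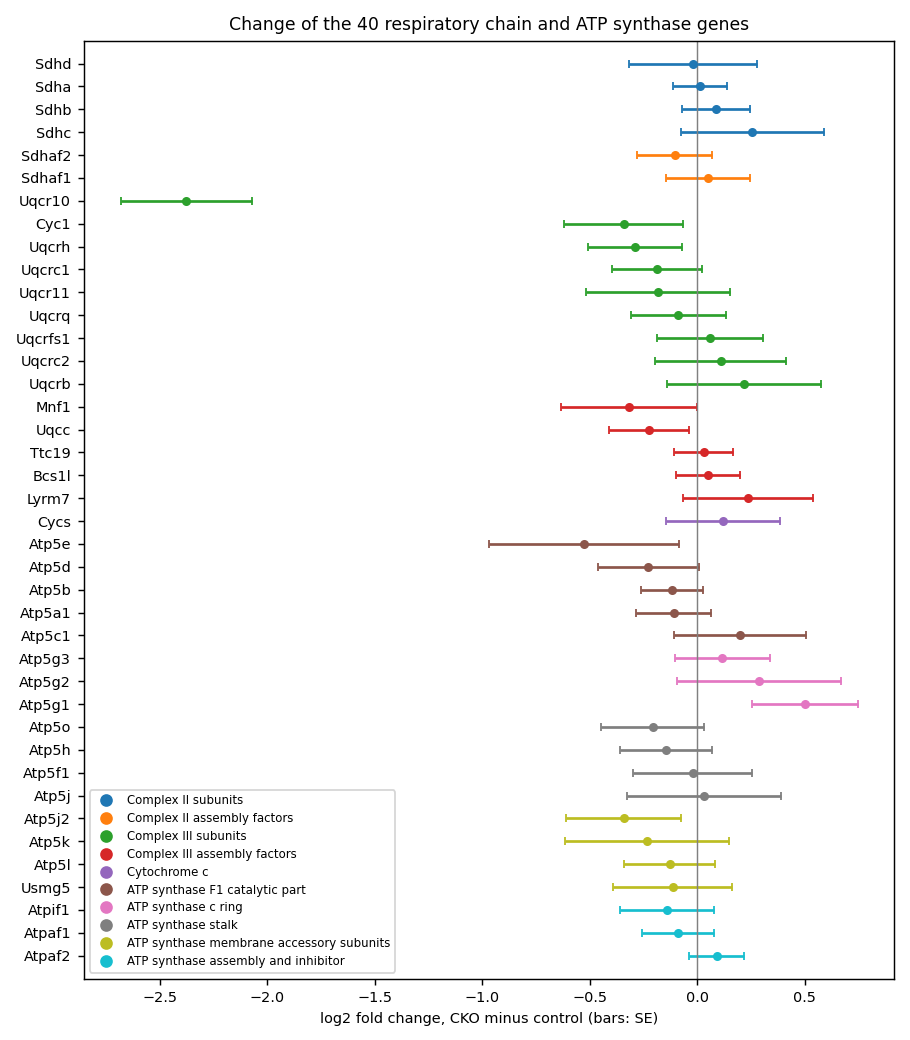
Log2 fold change (CKO minus control) of the 40 genes on the horizontal axis, 1 gene per row, coloured by role, with bars of 1 SE from the edgeR fit. Uqcr10 stands alone at -2.38, and the other 39 lie between -0.53 and 0.50.

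The complex II genes did not separate the genotypes. None of the 4 subunit genes or 2 assembly factor genes was called. Sdha, the flavoprotein subunit that binds succinate, stood at 266, 266 and 276 CPM in the CKO and 267, 290.5 and 242 CPM in the controls. Its log2 fold change of 0.013 ± 0.13 (SE) was the smallest of the 40, and the groups overlapped. Sdhc, a membrane anchor subunit, had the largest change of the complex at 0.26 ± 0.33. It stood at 121, 108 and 107 CPM in the CKO and 139, 47.7 and 94.8 CPM in the controls, so control replicate 2 was the low library. Sdhb, the iron-sulphur subunit, and Sdhd, the other membrane anchor, had log2 fold changes of 0.09 ± 0.16 and -0.02 ± 0.30. The assembly factor gene Sdhaf2, whose product helps attach the flavin to Sdha, stood at 36.0, 33.1 and 31.7 CPM in the CKO and 44.4, 30.3 and 33.8 CPM in the controls, and Sdhaf1, for iron-sulphur insertion, differed by 0.05 ± 0.19.

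In complex III, Uqcr10 was the exception among 9 subunit genes. It encodes the mammalian counterpart of yeast Qcr9, a small protein next to the Rieske iron-sulphur subunit. Uqcr10 had 204, 132 and 103 reads in CKO replicates 1 to 3 and 955, 639 and 500 reads in control replicates 1 to 3. As levels these were 7.06, 4.93 and 4.21 CPM in the CKO and 37.5, 27.9 and 19.0 CPM in the controls. The highest CKO library lay below the lowest control, as for 6.91% of all genes tested. Means were 5.40 ± 1.48 CPM in the CKO and 28.1 ± 9.23 CPM in the controls (SD, n = 3 libraries each), a 5.20-fold fall. On the log2 scale the edgeR estimate was -2.38 ± 0.30 (SE) with an adjusted p = 0.0157. The size held whichever library was left out, between -2.62 and -2.11, but the call was lost without CKO replicate 2 (adjusted p = 0.0812) or CKO replicate 3 (adjusted p = 0.0958). Fewer genes were called in those fits, with 0.196% lower and 0.162% higher without CKO replicate 2, and 0.0676% lower and 0.0406% higher without CKO replicate 3. In CKO replicate 2, with the lowest lens sum of the CKO libraries, Uqcr10 stood at 4.93 CPM. Without CKO replicate 1, with the highest lens sum, the edgeR log2 fold change was -2.62 (adjusted p = 0.0458). The lens sum of every CKO library was above that of every control. Lens content and genotype thus cannot be told apart, and the part of lens tissue was not tested. In whole retina, a lower level in every cell cannot be told apart from fewer cells that express the gene.

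The promoter region of Uqcr10 is shown because the deleted factor is known to bind DNA together with ZNF143 and HCF-1 at promoters that hold a motif of ACTACA, any 2 bases and TCCC, called the THAP11 and ZNF143 motif below. The region is the RefSeq window of 300 bases, 250 before and 50 after the annotated start, at chr11:4704295-4704594 on the minus strand of build GRCm38.p6. The read counts were made on mm9, so these coordinates belong to the sequence and not to the counts. Capitals mark each match to that motif on either strand.

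Uqcr10 promoter: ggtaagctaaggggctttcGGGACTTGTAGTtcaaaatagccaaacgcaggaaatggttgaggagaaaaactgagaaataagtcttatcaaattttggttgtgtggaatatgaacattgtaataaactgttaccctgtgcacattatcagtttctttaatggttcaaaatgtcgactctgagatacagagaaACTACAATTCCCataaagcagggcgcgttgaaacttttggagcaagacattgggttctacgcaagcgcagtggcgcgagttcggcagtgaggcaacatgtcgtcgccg

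The window held 2 matches, 1 on each strand. The match on the gene's own strand lay 46 bases before the start and the other 219 bases before it. Uqcr10 shares this region with Zmat5, which is transcribed the other way from a start 312 bases away. Zmat5 encodes a zinc finger protein that in human cells belongs to the minor spliceosome. The windows of both genes overlapped by 189 bases and held 3 distinct matches between them, 1 of which lay in both windows and another across the start of Zmat5.

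Zmat5 fell together with Uqcr10. It stood at 3.98, 4.33 and 3.19 CPM in the CKO and 24.4, 22.9 and 15.8 CPM in the controls, with no overlap. Its log2 fold change was -2.45 ± 0.23 (edgeR adjusted p = 0.00590, and 0.0513 without CKO replicate 3), or 18.3% of the control level, against 19.2% for Uqcr10. The counting is not stated to use strand, and overlap between transcripts of these 2 genes was not examined here. The tested genes next along the chromosome did not follow. Ascc2 stood at 40.6, 47.8 and 43.5 CPM in the CKO and 32.9, 94.4 and 52.5 CPM in the controls (log2 fold change -0.45 ± 0.34). Mtmr3, beyond Ascc2, and Nf2, beyond Zmat5, had log2 fold changes of -0.14 ± 0.18 and -0.06 ± 0.14. These 4 neighbours were chosen after the values of Uqcr10 had been seen.

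Of 34 members with a RefSeq promoter sequence, 4 held the motif, or 11.8%, against 4.40% of 11429 tested genes and 2.08% of all 27025 genes with a window of this length. Among the genes called lower, 66 of 88 with a window held it, and among those called higher 8 of 21. These are counts of letters and not of binding. Besides Uqcr10 the motif was found for Atp5d, Atp5o and Atpaf2, 3 genes of ATP synthase that did not pass the test. Windows of 30 bases around each match are given in the direction of the motif, with the match in capitals, to compare the letters of the gene that fell with those that were not called.

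Uqcr10, near match: tacagagaaACTACAATTCCCataaagcag
Uqcr10 and Zmat5, shared match: ctattttgaACTACAAGTCCCgaaagcccc
Zmat5, match across the start: ttaggaaggACTACAAATCCCagcgagcag
Atp5d: gcgaagaaaACTACAATTCCCagaatgacc
Atp5o: caggtacggACTACAACTCCCagcatgcaa
Atpaf2: gggaagaaaACTACAAGTCCCagagggccg

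These lie at chr11:4704382-4704411 (minus strand), chr11:4704555-4704584 (plus strand), chr11:4704643-4704672 (plus strand), chr10:80142184-80142213 (plus strand), chr16:91931695-91931724 (minus strand) and chr11:60417143-60417172 (plus strand) of GRCm38.p6, in the order listed. The 12 letters of the near Uqcr10 match were identical to those of Atp5d, and those of the shared match to Atpaf2. Atp5d, the delta subunit of F1, stood at 103, 98.3 and 103 CPM in the CKO and 114, 161 and 81.1 CPM in the controls (log2 fold change -0.23 ± 0.23). Atp5o, the subunit that ties F1 to the peripheral stalk, stood at 43.3, 37.8 and 39.9 CPM in the CKO and 61.9, 46.5 and 31.3 CPM in the controls (-0.21 ± 0.24). Both overlapped between genotypes.

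Atpaf2, an assembly factor of F1, was the only member besides Uqcr10 whose genotypes did not overlap. It stood at 27.7, 28.8 and 27.6 CPM in the CKO and 27.1, 26.7 and 25.1 CPM in the controls. The CKO libraries were all above the controls, as for 5.74% of all genes tested, but the change was 1.07-fold and not called (log2 fold change 0.09 ± 0.13, edgeR adjusted p = 0.953).

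**Figure D2:**
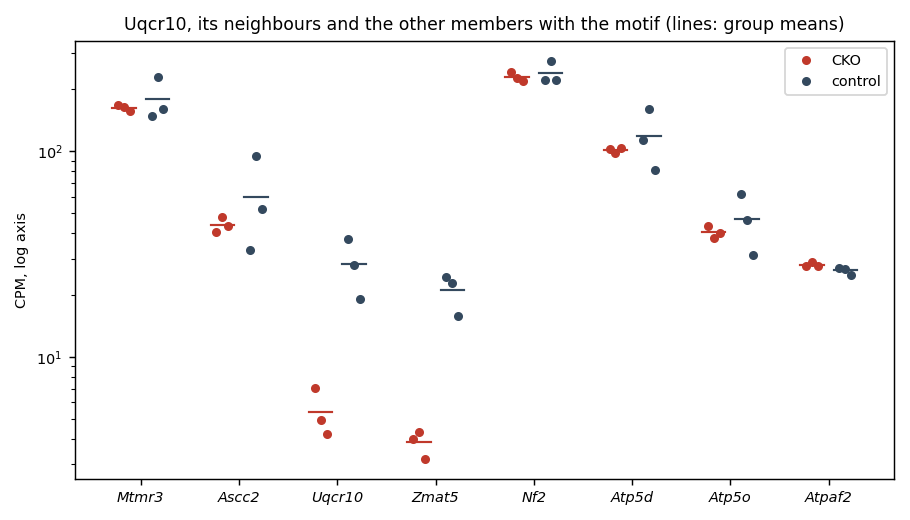
CPM on a log axis in each library for Uqcr10, its chromosomal neighbours and the 3 other members with the motif, CKO in red and control in dark blue, with lines at group means. Uqcr10 and Zmat5 are separated between genotypes by a wide gap, Atpaf2 by a narrow one, and the other 5 genes overlap.

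The other 8 subunit genes of complex III were not called, with log2 fold changes of -0.34 to 0.22. Cyc1, which encodes cytochrome c1, had the highest mean CPM of them in both genotypes. It stood at 147, 198 and 276 CPM in the CKO and 256, 193 and 339 CPM in the controls, so it varied within both groups (log2 fold change -0.34 ± 0.28, adjusted p = 0.940). Uqcrh, the hinge protein between cytochrome c1 and cytochrome c, stood at 48.6, 45.8 and 46.9 CPM in the CKO and 74.6, 57.7 and 40.4 CPM in the controls (-0.29 ± 0.22). The core proteins Uqcrc1 and Uqcrc2 had log2 fold changes of -0.19 ± 0.21 and 0.11 ± 0.30, and Uqcrfs1, the Rieske protein itself, of 0.06 ± 0.24. The small subunit genes Uqcr11, Uqcrb and Uqcrq lay at -0.18 ± 0.33, 0.22 ± 0.36 and -0.09 ± 0.22.

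**Figure D3:**
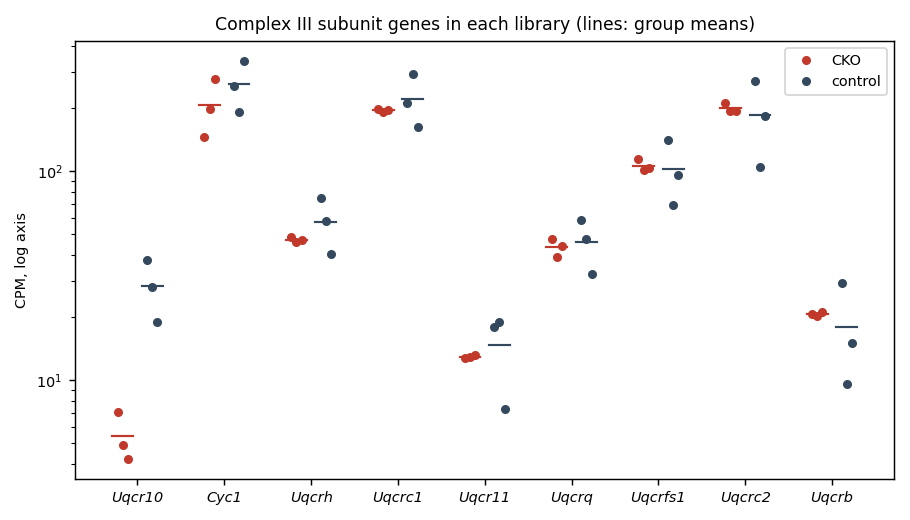
CPM on a log axis in each library for the 9 complex III subunit genes, CKO in red and control in dark blue, with lines at group means. Only for Uqcr10 do the 3 CKO libraries, at 4.21 to 7.06 CPM, lie clear of the 3 controls, at 19.0 to 37.5 CPM.

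The place of Uqcr10 among the subunits changed with this fall. Per kilobase of annotated transcript its level was 12.4 ± 3.42 CPM per kb in the CKO and 64.8 ± 21.3 CPM per kb in the controls (SD, n = 3). It ranked 9 of 9 subunit genes in every CKO library, and 7, 5 and 7 of 9 in control replicates 1 to 3. By control means, Cyc1 (173 ± 48.3 CPM per kb) and Uqcrc1 (135 ± 39.4) headed the order. In control replicates 1 to 3, Cyc1 ranked 1, 2 and 1, and Uqcrc1 5, 1 and 2. Neighbours such as Uqcrfs1 (75.0 ± 26.7) and Uqcr10 did not differ beyond their spread. In the CKO, Uqcr11 was next above Uqcr10 at 29.2 ± 0.62 CPM per kb. Of all reads on the 9 subunit genes, Uqcr10 took 0.872%, 0.608% and 0.469% in the CKO and 3.41%, 3.40% and 2.12% in the controls. This share does not depend on the scaling between libraries.

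None of the 5 complex III assembly factor genes was called. Uqcc, for cytochrome b translation and assembly, had the highest mean CPM of them in both genotypes. It stood at 32.5, 34.0 and 35.6 CPM in the CKO and 39.9, 48.9 and 30.6 CPM in the controls (log2 fold change -0.22 ± 0.19). Ttc19 was above Uqcc in CKO replicates 1 and 2 and in control replicate 3. Mnf1, the partner of Uqcc now named Uqcc2, stood at 12.6, 12.1 and 12.9 CPM in the CKO and 18.3, 20.4 and 8.15 CPM in the controls (-0.32 ± 0.32). Per kilobase, the means of Mnf1 were above those of Uqcc in both genotypes. Lyrm7, which carries the Rieske protein before its insertion, was the least abundant of the 40 genes, at 1.66, 1.87 and 1.92 CPM in the CKO and 1.18, 1.27 and 2.17 CPM in the controls (0.24 ± 0.30). Bcs1l, the translocase that inserts the Rieske protein, and Ttc19, which clears its fragments, lay at 0.05 ± 0.15 and 0.03 ± 0.14. Cycs, the mobile electron carrier between complexes III and IV, stood at 24.8, 24.4 and 25.9 CPM in the CKO and 32.5, 14.8 and 21.8 CPM in the controls (0.12 ± 0.27).

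The 19 genes of ATP synthase held the most abundant members and showed no call. By group mean, Atp5b and Atp5a1, the beta and alpha subunits that form the catalytic hexamer, led the 40 genes per kilobase in both genotypes. The control mean of Atp5e per kilobase was close behind that of Atp5a1. In control replicate 2, Atp5e lay above both Atp5b and Atp5a1. Atp5b stood at 990.5, 902 and 923 CPM in the CKO and 1050.3, 1144 and 858 CPM in the controls (log2 fold change -0.12 ± 0.14). Atp5a1 stood at 910.3, 855 and 927 CPM in the CKO and 931, 1202 and 772 CPM in the controls (-0.11 ± 0.18). Atp5c1, the gamma subunit of the rotor shaft, lay at 0.20 ± 0.31.

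Atp5e, the epsilon subunit at the foot of that shaft, had the largest change of the 39 genes that were not called, and its control libraries spread widely. It stood at 116, 109.6 and 117 CPM in the CKO and 142, 284 and 66.2 CPM in the controls (log2 fold change -0.53 ± 0.44, adjusted p = 0.940). Without control replicate 2 the value was 0.14, with the sign turned.

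The 3 genes of the c ring, which encode the same mature protein behind different import sequences, all had positive values without passing the test. Atp5g1 stood at 19.2, 19.2 and 21.6 CPM in the CKO and 19.9, 10.9 and 11.6 CPM in the controls, and control replicate 1 overlapped the CKO. Its log2 fold change of 0.50 ± 0.25 was the highest of the 40, with an unadjusted p = 0.0785 and an adjusted p = 0.854 in edgeR. Atp5g2 stood at 18.3, 15.7 and 17.7 CPM in the CKO and 21.3, 6.28 and 14.7 CPM in the controls (0.29 ± 0.38). Atp5g3 stood at 209.8, 194 and 211 CPM in the CKO and 255, 138 and 174 CPM in the controls (0.12 ± 0.22). Without control replicate 2, Atp5g2 and Atp5g3 turned to -0.052 each. Atp5g3 gave most c ring reads, at 84.3% to 84.8% in the CKO and 86.1% to 89.0% in the controls. The coding parts of these genes are alike, and many genes of ATP synthase have processed pseudogenes, so that the counting may divide or discard some of their reads.

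Among the stalk genes, Atp5f1 (subunit b) stood at 125, 119 and 125 CPM in the CKO and 181, 78.3 and 115 CPM in the controls, with a log2 fold change of -0.02 ± 0.28. Atp5h (subunit d) and Atp5j (coupling factor 6) lay at -0.15 ± 0.22 and 0.03 ± 0.36. The 4 accessory membrane subunit genes, which help ATP synthase form dimers, had values of -0.34 to -0.11. Atp5j2 (subunit f) was the most abundant of them, at 31.4, 28.4 and 28.7 CPM in the CKO and 49.98, 39.6 and 22.7 CPM in the controls (-0.34 ± 0.27). Atp5k and Atp5l (subunits e and g) and Usmg5 lay at -0.23 ± 0.38, -0.13 ± 0.21 and -0.11 ± 0.28. Atpif1, the inhibitor that blocks the enzyme from running backwards, stood at 94.6, 90.8 and 99.4 CPM in the CKO and 115, 128 and 70.2 CPM in the controls (-0.14 ± 0.22). Atpaf1, the assembly factor for the beta subunit, lay at -0.09 ± 0.17.

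The spread of these genes was unequal between the genotypes. The median SD of log2 CPM was 0.08 over the CKO libraries and 0.47 over the controls for the 40 genes, against 0.10 in the CKO and 0.33 in the controls for all genes tested. The SD was larger in the controls for 37 of the 40. The median over all genes tested was larger there too, so this direction was not particular to these genes. The CKO libraries lay inside the control range for 33 of the 40 genes, or 82.5%, against 52.6% of all genes tested. The highest library was a control for 36 of the 40, or 90.0%, and the lowest for 37, or 92.5%. Of all 13827 genes tested that have a transcript, a control was highest for 76.4% and lowest for 74.2%.

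The 3 controls differed from each other together with transcript length and base composition. Control replicate 1 was above the mean of 6 libraries for 37 of the 40 genes (median deviation 0.38 on the log2 CPM scale), and control replicate 3 for 5 of the 40 (median deviation -0.19), while the CKO medians were -0.06 to 0.02. Over all genes tested that have a transcript, the medians lay between -0.01 and 0.02. The transcripts of the 40 genes had a median length of 1154 bases, against 2931 bases for all genes tested. Across the 40 genes the deviation correlated with log2 transcript length at Pearson's r = -0.45 in control replicate 1 and r = 0.48 in control replicate 3, and across 13827 genes at r = -0.18 and r = 0.37. With the G+C percentage of the transcript it correlated at r = 0.06, 0.42 and -0.28 across the 40 genes in control replicates 1 to 3, and at r = -0.37, 0.51 and -0.21 across all 13827 genes. In control replicate 2 the correlations with length were -0.29 across the 40 genes and 0.04 across all. In the CKO libraries the correlations with length were 0.11 to 0.31 across the 40 genes and -0.14 to -0.01 across all 13827. These are correlations across genes within 1 library, and genes are not independent replicates. The part of this pattern in the values that were not called was not tested.

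**Figure D4:**
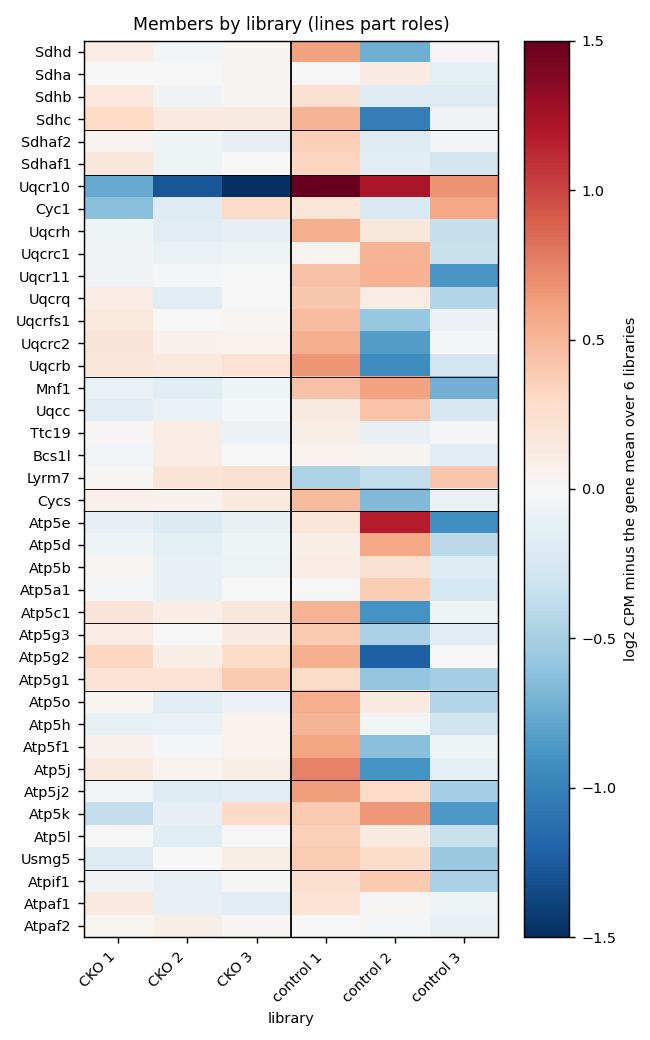
Log2 CPM minus the gene's mean over 6 libraries for the 40 genes (rows, by role) in each library (columns, CKO left of control), red above and blue below the mean. Control replicate 1 is above the mean for 37 genes and control replicate 3 for 5.

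**Figure D5:**
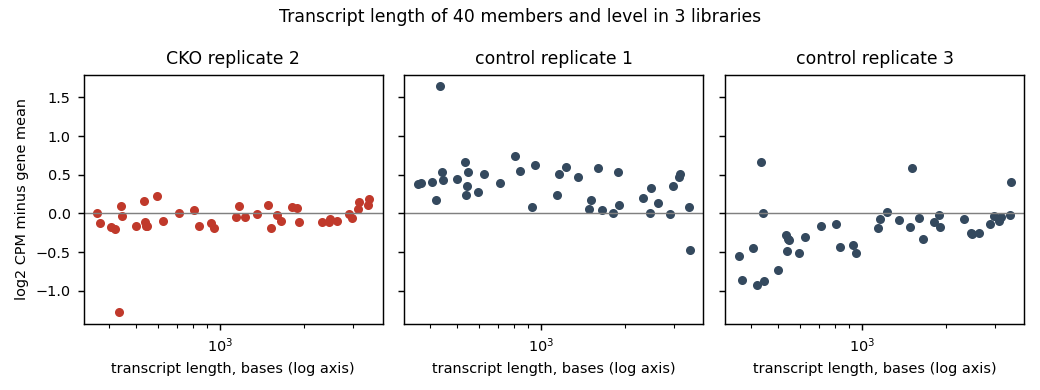
Transcript length (log axis, bases) against log2 CPM minus the gene mean for the 40 genes in CKO replicate 2, control replicate 1 and control replicate 3. Short transcripts are high in control replicate 1 (r = -0.45) and low in control replicate 3 (r = 0.48). In CKO replicate 2, r = 0.31 across the 40 genes and -0.01 across all 13827 genes tested that have a transcript.

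Genes that feed these complexes or serve them were followed through 6 lists, and edgeR and limma-voom called none of their members. At an unadjusted p under 0.05 in edgeR were 1 gene of ubiquinone synthesis and 1 biogenesis regulator, and DESeq2's Wald test called 1 gene, of ubiquinone synthesis, lower. In ubiquinone synthesis, 0 of 13 genes were called (median log2 fold change 0.09). Coq10a, a ubiquinone-binding chaperone, was the largest change there, at 8.03, 8.85 and 8.34 CPM in the CKO and 12.1, 17.1 and 13.1 CPM in the controls. Its libraries did not overlap, and its log2 fold change of -0.74 ± 0.18 missed the threshold (edgeR adjusted p = 0.225). Among 7 tested genes of other electron entry to ubiquinone (median 0.03), Etfb, of the electron transfer flavoprotein, stood at 43.5, 35.7 and 40.4 CPM in the CKO and 53.3, 96.4 and 33.8 CPM in the controls (-0.62 ± 0.34, adjusted p = 0.898). Control replicate 2 was its high library.

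Of 24 genes of iron-sulphur cluster and haem supply (median 0.04), Nfu1, a cluster carrier, had the largest change at 0.48 ± 0.23 (adjusted p = 0.834), with the CKO at 12.9, 14.3 and 14.1 CPM above the controls at 11.5, 6.67 and 11.3 CPM. Of 11 tested genes of ATP, ADP and phosphate transport (median -0.08), Ckmt1, a mitochondrial creatine kinase, had the largest change. It stood at 3.50, 4.70 and 4.74 CPM in the CKO and 4.005, 8.72 and 3.997 CPM in the controls (-0.37 ± 0.34). Of 12 genes of cristae organisation (median 0.06), it was Chchd6, a subunit of the MICOS complex. Its libraries stood at 47.9, 45.7 and 49.6 CPM in the CKO and 38.6, 48.9 and 24.4 CPM in the controls (0.36 ± 0.24), and overlapped. Of 14 regulators of mitochondrial biogenesis (median -0.08), Pprc1, a coactivator of the PGC-1 family, stood at 52.6, 54.0 and 56.8 CPM in the CKO and 64.0, 135 and 82.3 CPM in the controls. The groups did not overlap and the log2 fold change of -0.78 ± 0.26 was not called (adjusted p = 0.505).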

How the data were processed

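The authors deposited 1 table of raw read counts per gene symbol for 6 libraries. The tools named are DESeq 2.13, HTSeq 0.5.4p3 and BWA 0.7.6a-r433, on build mm9, per the submitters' processing notes. No source used here gives the annotation or strand setting. The table's 3 merge-conflict lines and 1 blank line were skipped, and 1 repeated gene with identical counts was kept once. Groups came from sample titles.

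The main test used edgeR 4.0.16 (R 4.3.3) on these counts, with filterByExpr (minimum count 10), TMM scaling and the quasi-likelihood F test on genotype, with Benjamini-Hochberg adjustment over 14609 genes (threshold 0.05). Every log2 fold change is CKO minus control. Its SE is the absolute log2 fold change over the square root of F. Log2 CPM used a prior count of 2. No 2 libraries of a group agreed within sampling noise (lowest chi-square per degree of freedom 5.77). Alternatives were DESeq2 1.42.0, limma-voom (limma 3.58.1), other scalings and filters, a replicate block, and leaving out each library.

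Members and lists were chosen with earlier results of these data known. Values in every library are given for called members, the 10 largest changes, the 3 highest CPM and the most abundant of each role by mean CPM. They are also given for members whose groups do not overlap, and for 1 gene of each pathway list. Atp5d, Atp5o and the divergent partners were added after their values were seen. Transcript lengths are those of the APPRIS principal protein-coding transcript in GENCODE M21 (GRCm38) with the best support, the shortest on ties, so levels per kb are approximate. Promoters are from RefSeq (GRCm38.p6), matched by gene ID or older symbol; Atp5a1, Cyc1, Sdhc, Uqcrb, Uqcrc2 and Uqcrq had none in the table. Mitochondrially encoded subunits were not analysed here.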

Additional observations from a re-analysis of the deposited data

How the results depend on the processing

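Uqcr10 kept its direction under all 13 alternatives and was called in 11 of them, with a log2 fold change of -2.62 to -2.11 when 1 library was left out. The members called lower numbered 0 to 1 when 1 library was left out, and 0 at an adjusted p threshold of 0.01. None of the 19 uncalled named members was called under any alternative. Over all genes, DESeq2's Wald test called 209 lower and 117 higher, a threshold of 0.01 left 31 and 8, and leaving out 1 library gave 10 to 147 lower and 6 to 72 higher. The labels do not say whether the numbers shared by CKO and control libraries pair them. Correlations of same-numbered deviations (0.336, 0.107 and -0.00775 for replicates 1 to 3) do not settle it. The libraries numbered 1 correlated best with each other, and those numbered 2 and 3 did not. With the replicate block, 113 genes were lower and 40 higher, and Uqcr10 had an adjusted p = 0.000677.

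Of 20 named members, 10 kept their sign throughout. Atp5f1 turned to 0.037 with library sizes alone, 0.062 with limma-voom and 0.063 with the replicate block. When 1 library was left out, values ranged from -0.21 to 0.089 for Atp5a1, -0.87 to 0.14 for Atp5e, -0.26 to 0.35 for Atp5f1, -0.052 to 0.71 for Atp5g2, -0.052 to 0.39 for Atp5g3, -0.33 to 0.046 for Atpif1, -0.10 to 0.45 for Cycs, -0.017 to 0.092 for Sdha, -0.20 to 0.070 for Sdhaf2 and -0.047 to 0.65 for Sdhc. The cause was not tested. With 3 libraries a group and this control spread, changes such as the 1.44-fold of Atp5e could not be told from the spread between libraries.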

Other observations

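Divergent partners of the other members were not called, but neither were those members. These pairs thus cannot show whether the partner of a falling gene falls too. A partner transcribed the other way from a start within 1000 bases was found for 16 members, and for 14 of them the partner was tested. Zmat5 was the 1 partner called lower and none was called higher. The other 13 partners had log2 fold changes of -0.29 to 0.34. Gabpa, which encodes a transcription factor of respiratory genes and shares its region with Atp5j, stood at 132, 131 and 127 CPM in the CKO and 128, 67.7 and 128 CPM in the controls (log2 fold change 0.27 ± 0.24). Gid4, a substrate receptor of a ubiquitin ligase that shares a region with Atpaf2, stood at 137, 117 and 119 CPM in the CKO and 104, 98.9 and 92.1 CPM in the controls. Its groups did not overlap, and its log2 fold change of 0.34 ± 0.13 was not called (edgeR adjusted p = 0.633). These partners were looked up after the values of Uqcr10 and Zmat5 had been seen.

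By raw count, motifs linked to other regulators of respiratory genes were in more member promoters than the THAP11 and ZNF143 motif in 2 of 3 cases. That motif was in 4 of 34, or 11.8%, against 4.40% of tested genes. The motifs differ in length and in their share of tested genes, so raw counts do not rank them. CCGGAAG, bound by ETS factors such as GABPA, was in 13 of 34 member promoters on either strand, or 38.2%, against 18.5% of tested genes. AAGATGGC, linked to YY1, was in 5 of 34, or 14.7%, against 4.82%. The NRF1 motif, GCGCA followed by TGCGC, was in 3 of 34, or 8.82%, against 2.16%. Uqcr10 held none of these 3, and overlaps between motifs were not removed.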
